A study of Bos taurus with 19 samples.

Results

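The theca interna of 5 small atretic bovine follicles was compared with that of 10 small healthy follicles, which makes up 15 of the 19 arrays of the series. Follicles of both groups were 3 to 5 mm across and came from slaughtered heifers of Bos taurus that were not pregnant, and a piece of each wall was used to class the follicle by histology. The healthy group joined 5 follicles whose basal granulosa cells were rounded and 5 in which they were columnar, and the remaining 4 arrays were of large healthy follicles over 9 mm. Each array carried the theca interna RNA of 1 follicle, dissected from a wall that had been scraped free of granulosa cells. Nothing in the labels says that each follicle came from a different animal, so each p-value speaks of follicle-to-follicle spread alone. The ages of the heifers were not stated.

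The groups also differed in how their RNA was made. Per the labels, atretic RNA was purified on RNAqueous Micro columns and labelled from 250 ng, whereas RNA of the small healthy follicles was purified on RNeasy mini columns and labelled from 2 to 5 μg. Every atretic array had the first treatment and every small healthy array the second, so atresia, kit and input cannot be told apart in any difference given here.

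Most ovarian follicles never ovulate and regress by atresia. Granulosa cells, which line the inside of the follicle, usually die early in this process, while the theca interna outside them lasts longer. The healthy theca interna is a vascular layer in which steroidogenic cells take up or make cholesterol and turn it into androgen under luteinizing hormone, among fibroblasts, endothelial cells, pericytes and resident leukocytes. In such bulk tissue fewer cells of a type and less RNA per cell cannot be told apart.

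Signals are log2 intensities per probe set, a group of short probes that together read 1 transcript, so that a difference of 1 is a 2-fold change. A probe set was tested if 50% or more of the arrays in any of the 3 small groups read over 3, which left 15470 of 24127 probe sets and 7351 named genes. In a principal component analysis of these probe sets the first component held 50.9% of the variance and the second 13.0%. Atretic replicates 1 to 5 lay at 41.2, 39.4, 21.3, 27.4 and 51.2 on the first component. Healthy follicles with rounded granulosa cells lay at 15.6, -28.5, 6.6, -6.2 and -45.8, and those with columnar cells at -34.3, -33.0, -21.3, 5.9 and -39.6. All 5 atretic arrays were therefore beyond every healthy array, with atretic replicate 3 the closest to them and rounded replicate 1 the nearest healthy array.

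**Figure D1:**
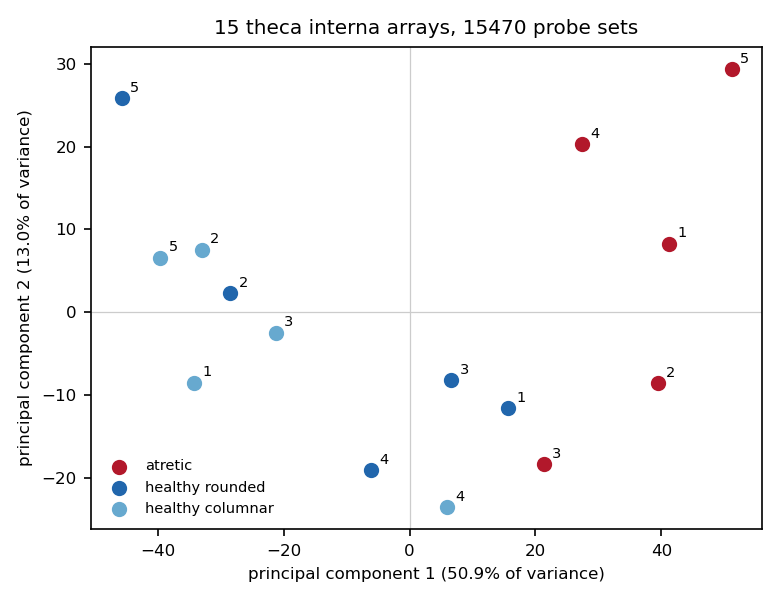
Scores of the 15 small follicle arrays on the first (x axis, 50.9% of variance) and second (y axis, 13.0%) principal components, coloured by group. The 5 atretic arrays lie between 21.3 and 51.2 on the x axis, to the right of all 10 healthy arrays.

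The division into atretic and healthy accounted for 35.5% of the variance over all probe sets (exact permutation test over 3003 splits, p = 6.66e-04, smallest possible p 3.33e-04). That share ranged from 31.5% to 40.4% when single arrays were left out. Control probe sets gave a limited view of the labelling. Poly-A spike controls, added to the RNA before labelling, averaged 4.78 ± 0.32 in atretic (SD, n = 5) and 4.57 ± 0.22 in healthy samples (SD, n = 10), a log2 difference of 0.206 (two-sided exact permutation p = 0.163), which was 0.111 without atretic replicate 2 and 0.136 without replicate 5. Hybridization controls, added after labelling, averaged 7.85 ± 0.15 and 7.66 ± 0.13, a difference of 0.187 (exact permutation p = 0.0260, 0.0779 after adjustment over 3 measures). The excess of 3′ over 5′ signal for the same transcripts, which grows as RNA degrades or copies shorten, was 0.960 ± 0.080 and 0.887 ± 0.070, a difference of 0.0733 (exact permutation p = 0.0939, adjusted 0.141). The part of these measures in the results was not tested.

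Of the probe sets tested, 322 were up regulated in atretic theca interna (2.08%) and 247 down regulated (1.60%), where a call required a Benjamini-Hochberg adjusted p under 0.05 in limma and at least a 2-fold change. The 569 calls held 179 genes that were higher and 165 that were lower, with 1 gene in both directions through different probe sets, and 173 calls had no single gene symbol. Without the fold requirement, 2608 probe sets were higher (16.9%) and 2331 lower (15.1%) at the same adjusted p. More lower than higher calls exceeded 3-fold (111 against 56), although the single call past 8-fold was a rise. All 5 atretic arrays lay below all 10 healthy arrays for 132 of the 247 lower calls, and above them for 59 of the 322 higher calls. Over every tested probe set such separation was seen in 1.67% downward and 1.42% upward.

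The split of calls between directions depended on scaling. Higher calls were 56.6% of the total, 84.2% with arrays centred on housekeeping genes and 31.0% with arrays centred on poly-A controls, and these scalings placed the median of all probe sets at 0.31 and -0.20 in place of 0.01. Against rounded follicles alone 147 probe sets were called, 46 higher and 101 lower, and against columnar follicles alone 726.

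**Figure D2:**
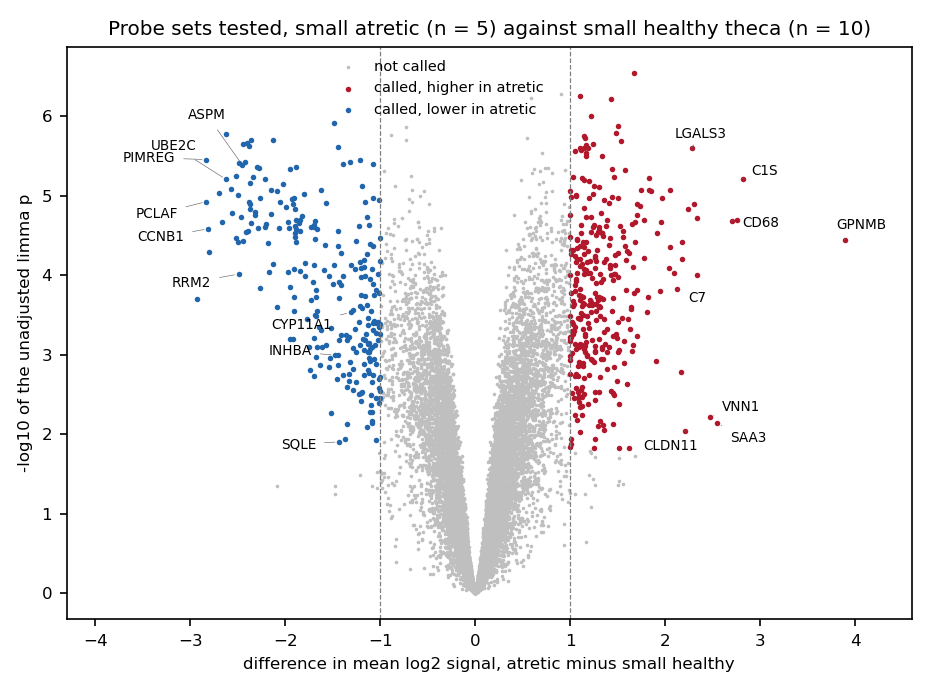
Each point is 1 of the 15470 probe sets, with its log2 difference (x axis, atretic minus small healthy) against the -log10 of its unadjusted limma p (y axis). Called probe sets, 322 higher and 247 lower, are coloured and dashed lines mark a 2-fold change.

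Cell cycle genes were lower in atretic theca interna throughout. All 25 tested members of a list of cell division and DNA replication genes fell at an adjusted p under 0.05, and 23 were called, where over all genes, at 1 probe set a gene, 2.14% were called lower and 16.7% fell. Their median log2 difference was -1.91 against -0.01 for all genes. In 18 of the 25 members every atretic array was below every healthy array, as in 1.67% of all tested probe sets. Averaged over the list, signals were 5.05, 4.73, 5.48, 5.40 and 4.89 on the atretic arrays. Healthy arrays ranged from 5.88 to 7.71, so the 5 atretic arrays were lowest, but healthy follicles were far from uniform.

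Mitotic regulators were among the largest falls. CCNB1 encodes cyclin B1, the partner of CDK1 at entry into mitosis. It read 3.0, 2.3, 4.0, 3.9 and 2.7 in atretic samples and from 4.3 to 7.3 in healthy ones, with a median of 6.4. No array of one group reached the other, and the fold change was 7.01 (log2 -2.81 ± 0.49, SE; adjusted p = 0.00188). CDK1 itself read 4.1, 3.7, 4.8, 4.4 and 4.0 against 5.2 to 7.7 (median 7.1), again without overlap (log2 -2.46 ± 0.41, adjusted p = 0.00187). UBE2C, the ubiquitin-conjugating enzyme of the anaphase-promoting complex, read 5.9, 5.1, 6.7, 6.1 and 5.1 against 7.1 to 9.2 (median 8.9), a 6.15-fold lower level (adjusted p = 0.00143). For BIRC5, or survivin, which serves chromosome segregation and inhibits apoptosis, atretic arrays read 4.3, 3.6, 4.9, 4.7 and 4.0 and healthy arrays 5.3 to 7.7 (median 7.35). It fell 5.66-fold (adjusted p = 0.00155) with no overlap between groups.

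The other genes among the 12 largest falls act in DNA replication or mitosis. PCLAF, a PCNA-binding protein, fell by 2.83 on the log2 scale, as did PIMREG, a mitotic regulator whose atretic mean of 2.84 lay under the filter level. UHRF1, which maintains DNA methylation at replication, differed by -2.80, CDCA8 of the chromosomal passenger complex by -2.66 and RRM2, a ribonucleotide reductase subunit, by -2.49. SHCBP1 (-2.56), found at the midbody of dividing cells, CDCA2 (-2.52), a mitotic phosphatase regulator, and the spindle protein ASPM (-2.45) completed the group. In all 12 genes the 5 atretic arrays were below the 10 healthy ones. The 12 were picked as the largest falls on these same arrays, which favours such separation. It was seen in 132 of the 247 lower calls and in 1.67% of all tested probe sets. A second probe set for PIMREG gave -0.71 and was not called.

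Factors of the replication fork were lower too. PCNA, the sliding clamp of DNA polymerase, was 7.4, 7.1, 7.4, 7.7 and 7.2 in atretic and 7.7 to 9.8 in healthy theca interna (median 9.0), so that 4 of 5 atretic arrays were below all healthy ones (log2 -1.36 ± 0.32, adjusted p = 0.00729). The helicase subunits MCM3, MCM4 and MCM5 were called with log2 differences of -1.63, -1.75 and -1.26. MCM6 (-0.94, adjusted p = 0.0119) fell short of 2-fold, although its other probe set, at -1.12, was called. The clamp loader RFC4 fell by 0.72 on the log2 scale (adjusted p = 0.0439), and 5 of 5 atretic RFC4 values, 5.8 to 6.2, lay within the healthy range of 5.8 to 7.8. Against rounded follicles alone the median of the list was -1.68 and against columnar follicles -2.14, and it stayed between -2.06 and -1.79 when single arrays were left out.

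Markers of macrophages and other phagocytes were higher in atretic theca interna. Every one of the 14 tested markers rose and 11 were called, beside 2.30% of all genes called higher and 16.8% that rose. The median log2 difference was 1.31. Mean signals of the list were 6.31, 5.59, 5.34, 6.61 and 6.65 in atretic samples and 3.94 to 5.31 in healthy ones. The lowest atretic array, replicate 3, was thus just above the highest healthy array, rounded replicate 1.

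CD68, a glycoprotein of phagocyte lysosomes, read 7.4, 6.2, 4.8, 7.3 and 7.6 in atretic theca interna and 3.0 to 5.6 in healthy (median 3.95). Only atretic replicate 3 fell inside the healthy range, and the difference was 6.5-fold (log2 2.70 ± 0.46, adjusted p = 0.00187). CD14, a receptor for bacterial lipopolysaccharide on monocytes and macrophages, read 6.4, 4.4, 5.1, 6.7 and 6.3 against 2.7 to 4.7 (median 3.5). It was 4.72-fold higher (adjusted p = 0.00171), with atretic replicate 2 inside the healthy range. MSR1, a scavenger receptor, had all atretic values (5.6, 4.9, 4.7, 6.2 and 5.7) above the healthy maximum of 4.4 (median 3.7), a 3.34-fold rise (adjusted p = 0.00161), although its other probe set differed by 0.69 and was not called. The signalling adaptor TYROBP rose 3.43-fold and the 3 chains of complement C1q, which macrophages make, by 1.35 (C1QA), 1.42 (C1QB) and 1.47 (C1QC) on the log2 scale. CSF1R, the receptor for the macrophage growth factor CSF1, rose 1.92-fold (adjusted p = 0.00206) and FCER1G and CTSS rose by 0.70 and 0.69 on the log2 scale, short of a call.

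GPNMB, a transmembrane glycoprotein of phagocytes and pigment cells, had the largest measured rise of any named gene. It read 8.1, 6.7, 4.5, 7.3 and 8.2 in atretic samples and ran from 1.7 to 6.0 in healthy samples (median 2.95). Atretic replicate 3 was again inside the healthy range, and the fold change was 14.8 (log2 3.89 ± 0.69, adjusted p = 0.00203). Since the healthy mean of 3.07 was at the filter level, the size of this fold is uncertain, and its other probe sets gave log2 differences of 1.08 and 1.95, each called. LGALS3, the carbohydrate-binding protein galectin 3, read 7.1, 7.1, 6.0, 8.0 and 8.4 against 4.3 to 5.8 (median 4.95), with no overlap and a 4.86-fold rise (adjusted p = 0.00135). MBP, the myelin basic protein gene, was 5.06-fold higher (6.2, 6.7, 4.1, 6.2 and 6.6 against 2.5 to 5.1), while its other probe set differed by 0.83 and was not called.

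Lymphocyte and general leukocyte markers were also higher, at low signals. All 12 tested markers rose and 5 were called, beside 16.8% of all genes that rose and 2.30% called higher. A marker could pass the filter through the atretic group alone, as CD3D did, which favours rises in this count. The median log2 difference was 0.80. List means were 4.25, 4.11, 3.58, 4.72 and 4.72 in atretic and 2.90 to 4.03 in healthy theca interna, so atretic replicate 3 overlapped the healthy arrays. PTPRC (CD45), on all leukocytes, read 5.6, 5.4, 4.8, 6.2 and 5.7 against 3.8 to 5.3 (median 4.4), with 4 of 5 atretic arrays above all healthy ones (2.00-fold, adjusted p = 0.0130). At this border of the fold requirement the call was lost when any of 9 single arrays was left out. CD53, a leukocyte tetraspanin, rose 2.93-fold and NKG7, of cytotoxic lymphocyte granules, rose 2.19-fold, the latter with no overlap, while its other probe set differed by 0.09. CD3D, part of the T cell receptor complex, rose by 0.81 on the log2 scale from a healthy mean of 2.85, below the filter level. CD4, CD5 and GZMB were below the filter in every group. Of the mast cell and granulocyte markers 2 of 7 on the array were tested, and KIT, the stem cell factor receptor, rose 1.65-fold (adjusted p = 0.0363).

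**Figure D3:**
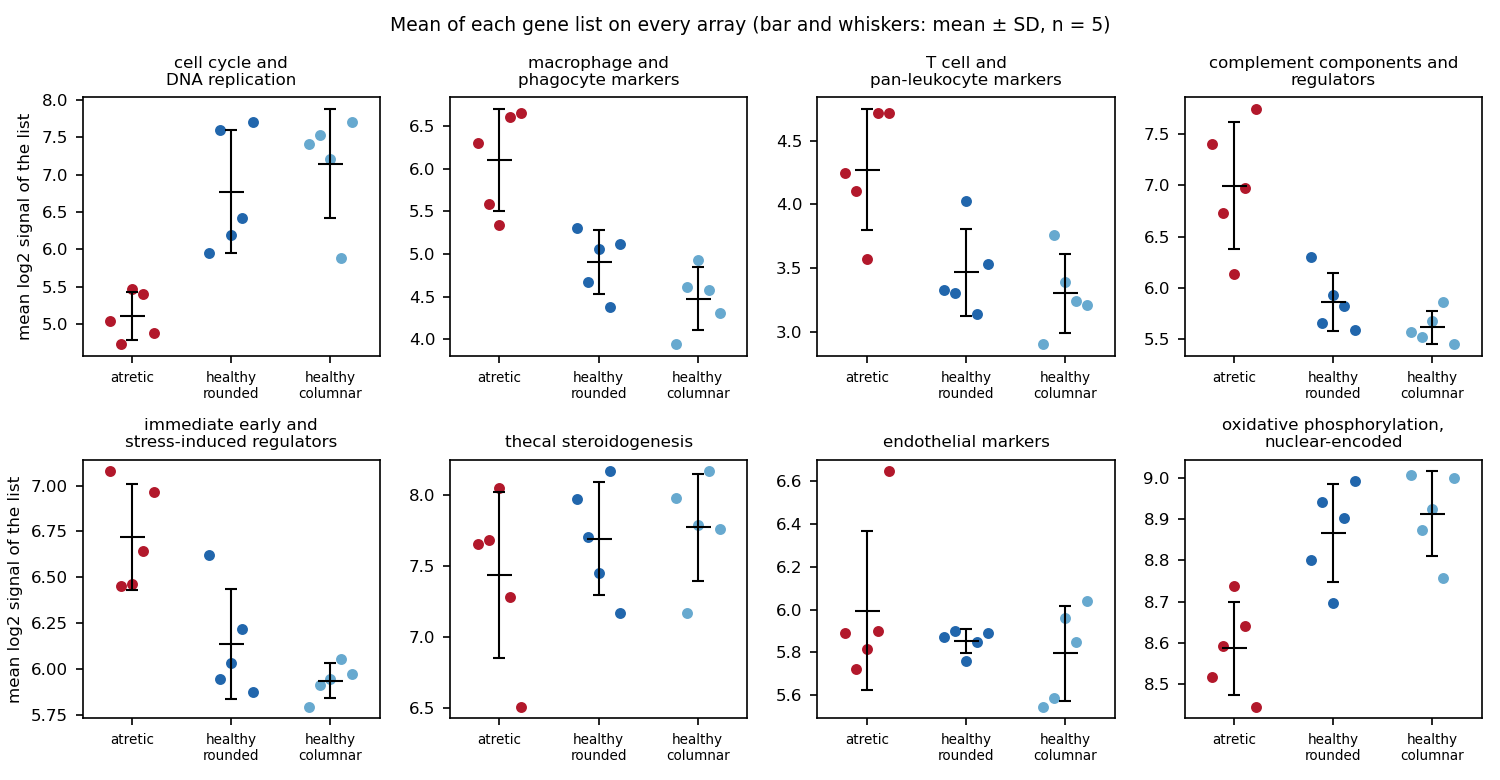
Mean log2 signal (y axis) of 8 gene lists on each array, in atretic, healthy rounded and healthy columnar follicles, with the mean ± SD of 5 arrays. For the cell cycle list the atretic arrays (4.73 to 5.48) lie below every healthy array (5.88 to 7.71), and for macrophage markers (5.34 to 6.65) above every healthy array (3.94 to 5.31).

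Genes of the complement cascade, which opsonizes cells and debris for uptake, were called higher in 7 of 12 tested cases and in none lower. Of all genes 2.30% were called higher. CFI passed the filter through the atretic group alone, which favours a rise in this count. The median log2 difference was 1.25. List means were 7.4, 6.73, 6.13, 6.98 and 7.74 in atretic samples against 5.45 to 6.30 in healthy ones, where only atretic replicate 3 was within the healthy range. The rise included proteases, a terminal component and inhibitors.

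C1S, the serine protease that cleaves C4 and C2, read 8.7, 7.8, 6.1, 8.1 and 9.6 against 4.4 to 6.4 (median 5.25). With 4 of 5 atretic arrays above all healthy ones, it was 7.06-fold higher (log2 2.82 ± 0.43, adjusted p = 0.00143). Its partner C1R rose 4.14-fold (7.4, 6.9, 5.5, 7.0 and 8.3 against 4.4 to 5.7, adjusted p = 0.00152). C4A, a substrate of C1S, rose 2.75-fold, and C7, which helps form the membrane attack complex, rose from a healthy median of 6.9 to atretic values of 10.1, 9.1, 7.8, 8.4 and 9.9 (4.38-fold, adjusted p = 0.00386).

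Inhibitors rose beside these. SERPING1, which blocks C1R and C1S, read 8.2, 7.8, 6.5, 7.5 and 8.6 against 5.2 to 6.7 (median 5.7), a 3.61-fold rise (adjusted p = 0.00152). CFI, the protease that inactivates C3b and C4b, read 5.7, 4.2, 3.2, 5.1 and 6.5 against 2.2 to 3.6 (median 2.45). Most healthy arrays were below the filter level for this gene, which passed the filter through the atretic group alone. The log2 difference of CFI was 2.34 ± 0.39 (adjusted p = 0.00187). Clusterin (CLU), which restrains the membrane attack complex, rose 2.07-fold (adjusted p = 0.00828). The acute phase gene SAA3 was 5.86-fold higher by the group means (adjusted p = 0.0298), but it read 8.7 and 9.4 in atretic replicates 1 and 5 and 4.3, 3.6 and 3.4 in the others, against 2.9 to 4.9 in healthy theca interna. Without replicate 1 or replicate 5 its adjusted p was 0.0997 or 0.101.

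**Figure D4:**
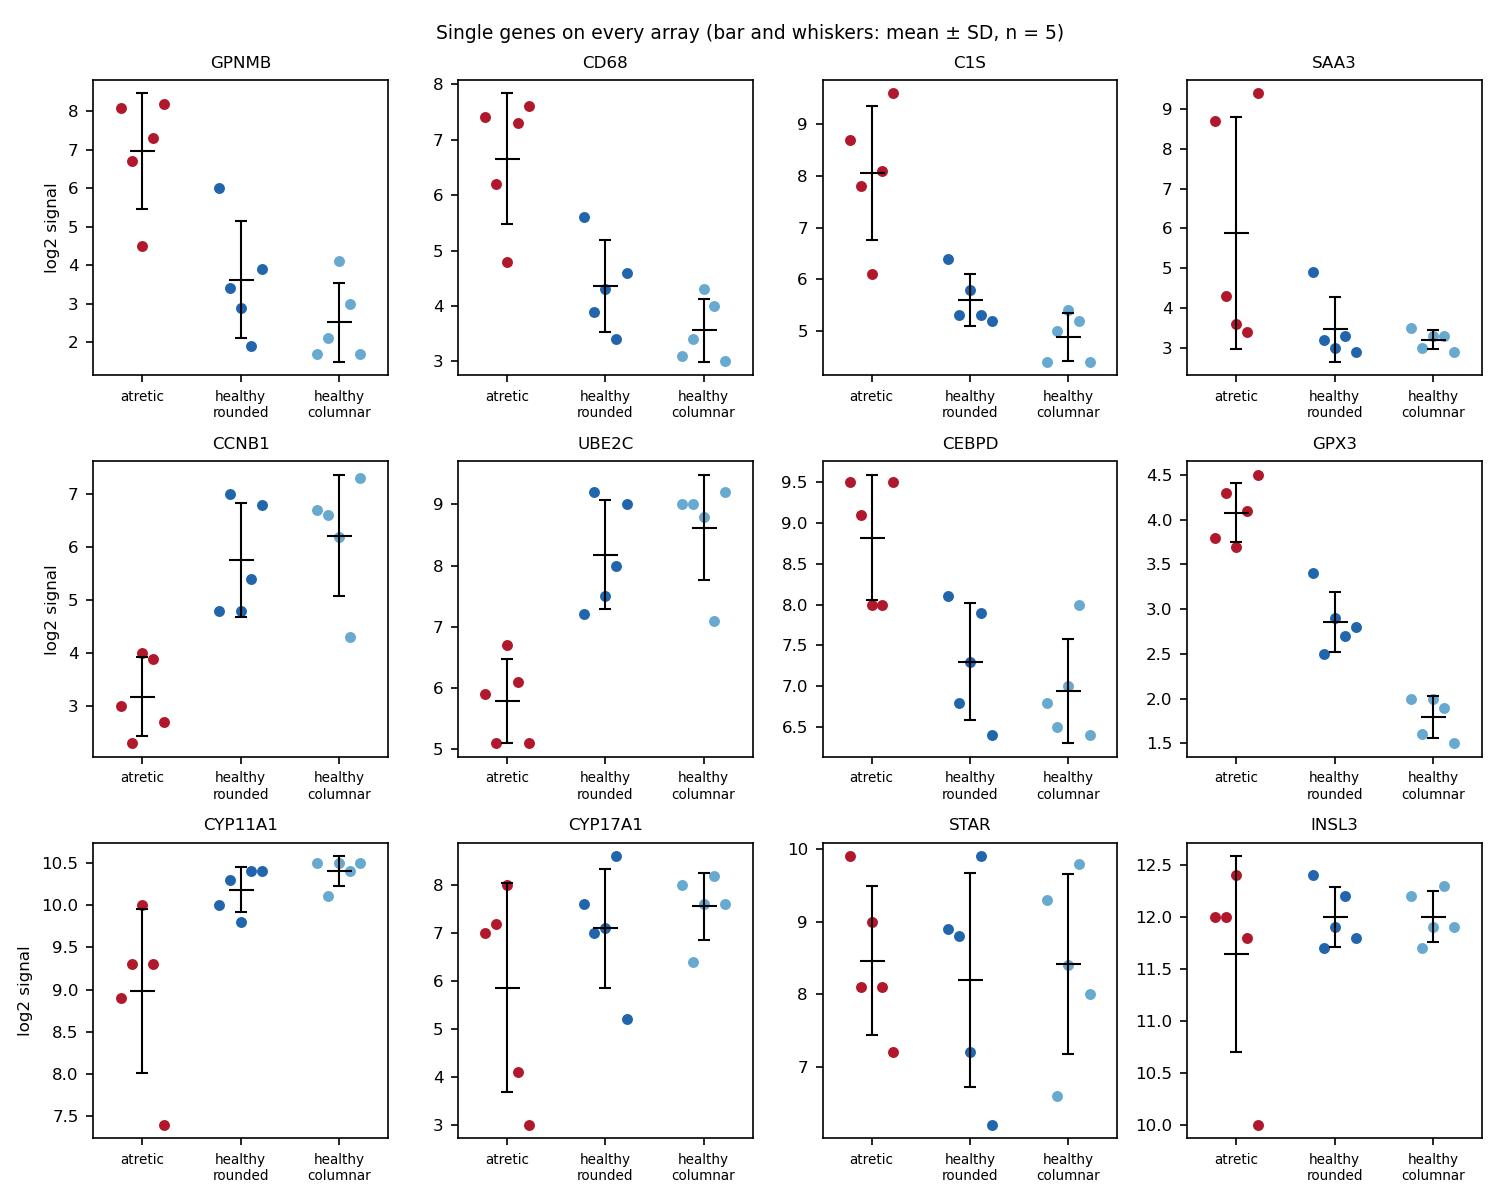
Log2 signal (y axis) of 12 genes on each array, by group, with the mean ± SD of 5 arrays. GPNMB, CD68 and C1S lie high on most atretic arrays with replicate 3 lowest, CCNB1 and UBE2C lie low on all 5, SAA3 is high on 2 of 5, and STAR overlaps between groups.

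The steroidogenic genes that define thecal endocrine cells were mostly not called. Of 14 tested members 1 was called lower, 1 rose without reaching 2-fold and 12 did not pass the test, beside 2.14% of all genes called lower. The median log2 difference was -0.27, and it became 0.03 with housekeeping centring and -0.075 without atretic replicate 5. List means of 7.65, 7.68, 8.05, 7.28 and 6.51 overlapped the healthy range of 7.16 to 8.16, with atretic replicate 5 below it.

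CYP11A1, the enzyme that cleaves the cholesterol side chain to give pregnenolone, was the member called. It read 8.9, 9.3, 10, 9.3 and 7.4 in atretic theca interna against 9.8 to 10.5 (median 10.4). All atretic arrays but replicate 3 were below the healthy ones, and the level was 2.48-fold lower (log2 -1.31 ± 0.29, adjusted p = 0.00529). Without replicate 5 the log2 difference was -0.91 (adjusted p = 0.00802), short of 2-fold. CYP17A1, which makes androgen, read 7.0, 7.2, 8.0, 4.1 and 3.0 against 5.2 to 8.6 (median 7.6), so that replicates 4 and 5 were below the healthy range and the other 3 inside it (log2 -1.47 ± 0.72, adjusted p = 0.121). It was called lower without atretic replicate 3 (log2 -2.005, adjusted p = 0.0442).

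STAR, which carries cholesterol into mitochondria, ranged from 7.2 to 9.9 in atretic and from 6.2 to 9.9 in healthy samples, a log2 difference of 0.15 ± 0.60 (adjusted p = 0.863). INSL3, a peptide hormone of theca cells, read 12, 12, 12.4, 11.8 and 10 against 11.7 to 12.4, with replicate 5 alone below the healthy arrays (log2 -0.36 ± 0.28, adjusted p = 0.328). HSD3B1, which converts pregnenolone to progesterone, differed by -0.37 ± 0.28 and the luteinizing hormone receptor LHCGR by -0.39 ± 0.29 (adjusted p = 0.322 and 0.30). NR5A1, a transcriptional activator of steroidogenic genes, differed by -0.45 ± 0.17 (adjusted p = 0.0509), and its repressor NR0B1 rose 1.62-fold (adjusted p = 0.0215).

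Cholesterol synthesis and uptake genes had a median log2 difference of -0.57, which ranged from -0.91 to -0.35 when single arrays were left out. Among 16 tested members 4 fell, 2 of them by call, and none rose, beside 16.7% of all genes that fell and 2.14% called lower. SQLE, squalene epoxidase, read 6.8, 5.1, 7.8, 5.2 and 4.4 against 5.7 to 8.3 (median 7.05), so 3 of 5 atretic arrays were below the healthy range (2.69-fold lower, adjusted p = 0.0425). INSIG1, which retains the sterol-sensing complex in the endoplasmic reticulum, fell 2.30-fold (adjusted p = 0.0199). The SQLE call was lost when any of 9 single arrays was left out, and that of INSIG1 without atretic replicate 2 or 5. List means were 6.44, 5.96, 7.24, 5.89 and 5.43 against 5.92 to 7.43 in healthy samples, with replicates 4 and 5 below the healthy range.

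Granulosa markers were examined because these cells were scraped from the wall before dissection. CYP19A1, the aromatase, read 1.9 to 2.2 in atretic and 2.1 to 2.6 in healthy samples, and the follicle stimulating hormone receptor FSHR read 1.4 to 2.9 and 1.6 to 2.7, all below the filter level. Among 9 tested markers INHBA, the activin and inhibin subunit, was called lower, beside 2.14% of all genes. It read 5.6, 5.7, 7.0, 5.6 and 5.3 against 6.3 to 9.1 (median 7.25), with all but replicate 3 below the healthy range (2.77-fold, adjusted p = 0.00962). AMH, anti-Müllerian hormone, fell 1.96-fold (adjusted p = 0.0187), and the creatine synthesis enzyme GATM rose 1.80-fold (adjusted p = 0.0228). List means were 6.68 to 8.36 in atretic and 7.39 to 8.40 in healthy samples, and their part in other differences was not tested.

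Immediate early and stress-induced regulators rose in 12 of 18 tested cases, with 4 calls, no fall and a median log2 difference of 0.72. Of all genes 16.8% rose and 2.30% were called higher. List means were 7.08, 6.45, 6.46, 6.64 and 6.97 in atretic samples and 5.79 to 6.62 in healthy ones, where rounded replicate 1 alone reached the atretic range. FOS, a subunit of the AP-1 transcription factor, read 9.9, 8.4, 8.9, 9.3 and 9.5 against 6.2 to 9.1 (median 7.55), a 3.12-fold rise (adjusted p = 0.00499). The acute phase transcription factor CEBPD read 9.5, 9.1, 8.0, 8.0 and 9.5 against 6.4 to 8.1 (median 6.9), and rose 3.25-fold (adjusted p = 0.00390). In each gene 3 of 5 atretic arrays were above all healthy ones. EGR1, an immediate early transcription factor, and ZFP36, which destabilizes inflammatory mRNAs, rose 2.30-fold and 2.25-fold.

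Chemokine and adhesion genes rose in 5 of 11 tested cases, 3 of them by call, and none fell. Of all genes, 16.8% rose and 2.30% were called higher. CXCR4, the receptor for CXCL12, read 7.5, 8.2, 6.3, 6.6 and 7.7 against 4.4 to 6.6 (median 5.1), a 3.89-fold rise (adjusted p = 0.00187). VCAM1, an adhesion molecule that binds leukocytes, rose 2.58-fold, and the monocyte attractant CCL2 rose 2.01-fold (adjusted p = 0.0442), a call lost when any of 11 single arrays was left out. Antigen presentation genes and interferon-stimulated genes had no calls among 11 tested members each, beside 2.30% of all genes called higher and 2.14% called lower. In each of these 2 lists, 2 members rose without reaching 2-fold and none fell. Their medians were 0.22 and -0.03, the latter 0.27 with housekeeping centring.

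Lysosomal genes rose in 9 of 15 cases and none fell (median 0.42). For the counts in this paragraph, 16.8% of all genes rose and 2.30% were called higher. The cathepsins CTSB and CTSZ, lysosomal proteases, were called at 2.48-fold and 2.10-fold. CTSZ read 7.9, 7.7, 7.1, 8.1 and 8.9 against 6.7 to 7.0, with no overlap (adjusted p = 0.00205). CTSB had 6 probe sets, whose log2 differences ran from -0.01 to 1.54. The extracellular proteases and inhibitors rose in 7 of 12 cases with 2 calls, A2M, a broad protease inhibitor, at 3.03-fold and the metalloproteinase MMP19 at 3.01-fold.

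Among 21 tested antioxidant genes 5 rose, 6 fell and 3 were called, all higher. Of all genes, 16.8% rose and 16.7% fell, with 2.30% called higher and 2.14% called lower. The median was -0.18, although the mean of the list was higher in atretic (7.51 ± 0.15, SD, n = 5) than in healthy samples (7.36 ± 0.13, SD, n = 10), and housekeeping centring turned the median to 0.12. GPX3, the secreted glutathione peroxidase, read 3.8, 4.3, 3.7, 4.1 and 4.5 against 1.5 to 3.4 (median 2.25), with no overlap and a healthy mean below the filter level. It passed the filter through the atretic group alone, which favours a rise in the count of calls. Columnar follicles, at 1.5 to 2.0, were below rounded ones, at 2.5 to 3.4, and the difference from both was called (log2 1.75 ± 0.27 for all, adjusted p = 0.00152). HMOX1, which breaks down heme, rose 2.41-fold and the metallothionein MT2A 2.75-fold (adjusted p = 0.0180), the latter with replicate 2 at 5.0, equal to the lowest healthy value. Among the falls were PRDX1 (-0.68) and PRDX3 (-0.47), peroxiredoxins that reduce peroxides, and GPX4 (-0.62), which repairs lipid peroxides.

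Energy metabolism genes were mostly lower by small amounts. Of 24 nuclear-encoded oxidative phosphorylation genes 16 fell and none was called, beside 16.7% of all genes that fell and 2.14% called lower. Their median log2 difference was -0.29, which became 0.005 with housekeeping centring. The housekeeping set included SDHA, a member of this list, and GAPDH and PPIA, which fell, so this centring is not independent of such genes. ATP5F1B, a subunit of ATP synthase, read 9.4, 9.7, 9.8, 9.6 and 9.3 against 10 to 10.5 (median 10.3), with no overlap and a 1.62-fold fall (adjusted p = 0.00157). Glycolytic genes fell in 9 of 17 cases (median -0.32), among them PGK1 (1.67-fold, adjusted p = 0.00581). PDK4, a kinase that slows entry of pyruvate into mitochondria, was the only member that rose, at 2.25-fold (adjusted p = 0.00300). GAPDH and PPIA, often used as reference genes, fell 1.21-fold and 1.49-fold (adjusted p = 0.0386 and 0.00386), while ACTB, with a log2 difference of -0.30, did not pass the test (adjusted p = 0.0700). Endoplasmic reticulum chaperones HSP90B1 (-0.73) and HSPA5 (-0.66) fell, each without overlap between groups, as in 1.67% of all tested probe sets. In all, 4 of 15 heat shock genes fell, beside 16.7% of all genes.

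Among apoptosis regulators, 4 of 11 fell and 2 rose, beside 16.7% of all genes that fell and 16.8% that rose. Their median was -0.18, or 0.12 with housekeeping centring. The fallen members were BIRC5, the anti-apoptotic BCL2L1, the pro-apoptotic BAK1 and the executioner caspase CASP6. FAS, a death receptor, read 4.0, 3.6, 3.2, 4.2 and 4.5 against 2.8 to 3.3 (median 3.0), a 1.78-fold rise (adjusted p = 0.00296). BAD, a pro-apoptotic BCL2 relative, rose by 0.38 on the log2 scale.

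Vascular markers gave a mixed picture. The endothelial list had 1 rise and 1 fall among 13 tested members, beside 16.8% of all genes that rose and 16.7% that fell. Its median was 0.15, which was -0.06 with poly-A centring and -0.045 without atretic replicate 5. PECAM1 and CDH5, adhesion molecules that mark endothelium, differed by -0.21 ± 0.21 and -0.01 ± 0.13. CLDN5, a tight junction protein of endothelium, rose 2.5-fold (7.7, 7.1, 6.6, 6.9 and 8.4 against 5.4 to 6.7, adjusted p = 0.00316). VEGFA, the main endothelial growth factor, read 5.5, 5.7, 6.6, 6.1 and 5.1 against 6.5 to 8.1 (median 7.25), with all but replicate 3 below the healthy range and a 2.71-fold fall (adjusted p = 0.00192). Its other probe set differed by -0.83. ANGPT2, which loosens vessels, was 2.83-fold higher (6.7 to 7.2 against 4.5 to 7.5, adjusted p = 0.00917) and ADM, the vasodilator adrenomedullin, 2.97-fold higher (adjusted p = 0.00788). In neither did an atretic array exceed the highest healthy array.

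Stromal lists changed little. For the counts in this paragraph, 16.8% of all genes rose and 16.7% fell, with 2.30% called higher and 2.14% called lower. Smooth muscle and pericyte markers rose in 4 and fell in 2 of 12 cases, with 1 call, MYH11, the smooth muscle myosin heavy chain (2.17-fold, adjusted p = 0.0167). The smooth muscle actin ACTA2 differed by -0.04 ± 0.29 (adjusted p = 0.928). Fibroblast and fibrillar matrix genes had no call among 15 (median 0.09, or -0.12 with poly-A centring), and basal lamina genes none among 13 (median 0.25). Wnt and insulin-like growth factor genes had no calls among 15 and 9 members. In the TGF-β family TGFBI, a matrix protein induced by TGF-β, was called higher (2.17-fold) and INHBA lower. Hormone receptors had no call among 10, with 4 rises that included the insulin receptor INSR (1.92-fold, adjusted p = 0.0111). Both tested epithelial keratins failed the test, and 9 other epithelial and erythroid markers were below the filter.

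**Figure D5:**
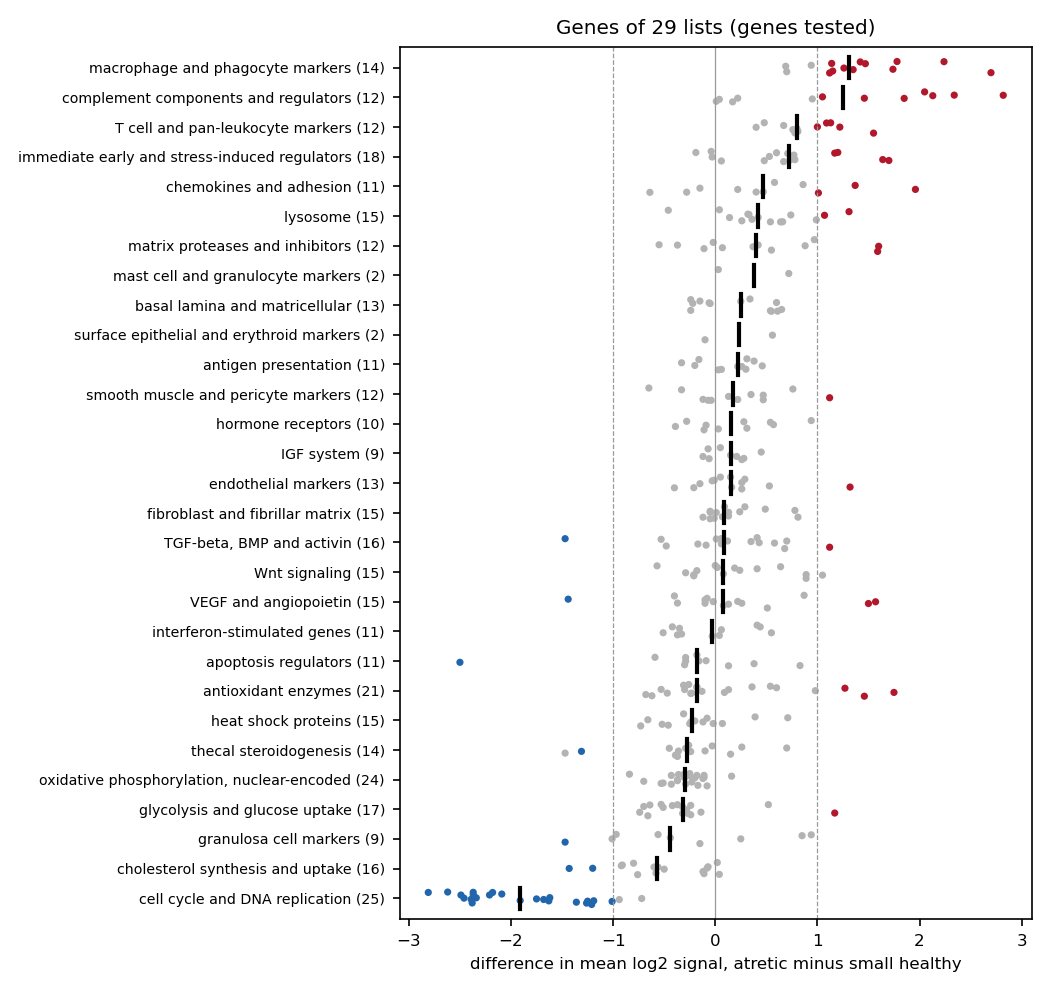
Log2 differences (x axis, atretic minus small healthy) of the tested genes in 29 lists (y axis, number tested in parentheses), coloured where called, with a black bar at each median. The cell cycle list (median -1.91) lies to the left of 0 in full, and the macrophage list (median 1.31) in full to the right.

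Against large healthy follicles, fitted over all 19 arrays, 22 probe sets were called higher in atretic theca interna (0.140%) and 21 lower (0.134%) of 15722 tested. Both comparisons use the same 5 atretic arrays, and the large group differs in size and RNA kit as well. CD68 read 4.1, 3.8, 3.8 and 5.2 in large follicles and was higher in atretic theca interna (log2 2.44 ± 0.52, adjusted p = 0.0429). For GPNMB, which read 3.4, 2.6, 2.0 and 5.5, the log2 difference was 3.58 ± 0.86 (adjusted p = 0.0564). CCNB1 read 5.0, 5.8, 5.0 and 3.3, and its difference of -1.59 ± 0.62 did not pass the test (adjusted p = 0.201). CLDN11, a tight junction protein called higher in atretic than small healthy theca interna (8.5, 3.8, 7.3, 8.0 and 8.3 against 2.6 to 6.6, adjusted p = 0.0343), read 8.5, 7.3, 8.0 and 8.3 in large follicles. Its other probe set differed by 0.84 between atretic and small healthy theca interna and was not called.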

How the data were processed

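RNA of 19 single follicles was hybridized to Affymetrix bovine arrays. The authors ran RMA, with quantile normalization, in Partek (6.5 per the submitters' processing notes) and deposited log2 signals with 1 decimal. No source used here says whether the 19 arrays were normalized as 1 set. Groups and replicate numbers came from the sample titles. The labels and the study's methods differ on RNA preparation and input, and the labels were followed.

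Control probe sets (111) were left out. Of all 24127 probe sets 13317 had 1 gene symbol in the platform annotation, 86 several and 10724 none. Differences were tested in limma 3.58.1 (R 4.3.3) with empirical Bayes moderation on the 15 small follicle arrays, with Benjamini-Hochberg adjustment over all 15470 probe sets tested. Single values were compared by exact permutation. A gene in a list was represented by its brightest tested probe set. Members and lists were chosen with earlier results of these data known. Named genes were the 12 largest rises and falls, up to 4 leading members of each list and 12 fixed theca, granulosa and reference genes. Other genes were named after their values were seen. The tests were tried on simulated data. No array pair held identical values. The median 95% interval of a log2 difference was ±0.245, and the number of arrays limits precision. Alternatives changed the filter, scaling, moderation, weights, block and samples.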

Additional observations from a re-analysis of the deposited data

Results flagged for a closer look

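In each group of 4 to 10 arrays, the highest or lowest value was compared with its neighbour by Dixon's criterion, and 16 of 320 groups checked were past it, where chance gives about 1 in 20, so the number of such values equals the chance rate. Rounded replicate 1 had the highest healthy log2 signal for SAA3 (4.9, next 3.5), CFI (3.6, next 2.9), CTSB (9.2, next 8.6), EGR1 (8.8, next 7.7) and CH25H (5.8, next 4.7), and the highest healthy mean of the immediate early list (6.62, next 6.22). Without it 654 probe sets were called in place of 569.

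Atretic replicate 3 was lowest of its group for MBP (4.1, next 6.2) and highest for INHBA (7.0, next 5.7), and without it 697 probe sets were called. Atretic replicate 2 was lowest for CLDN11 (3.8, next 7.3) and highest for the basal lamina collagen COL4A1 (11.7, next 11.4). Atretic replicate 5 was lowest for INSL3 (10, next 11.8) and S100A9 (3.3, next 3.7), and had the highest mean of the endothelial list (6.65, next 5.90). Without it 444 probe sets were called. Among the remaining healthy arrays columnar replicate 1 was highest for INHBA (9.1, next 7.7), columnar replicate 2 lowest for the pericyte marker CSPG4 (3.9, next 4.1) and rounded replicate 5 highest for the keratin KRT18 (7.5, next 6.0).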

How the results depend on the processing

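The main comparison called 569 probe sets, 322 higher and 247 lower. Against rounded follicles alone the counts were 147, 46 and 101, and against columnar follicles alone, also 5 arrays, 726, 431 and 295. The cause was not tested. A filter at a log2 signal over 5 tested fewer probe sets and gave 213 higher calls. Centring on housekeeping genes gave 946 calls, 797 higher and 149 lower, and centring on poly-A controls 178 higher and 396 lower. Leaving out single arrays gave 444 to 697 calls, 232 to 408 higher and 212 to 289 lower.

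Replicate numbers did not pair the arrays (same-number correlations of deviations -0.345 to 0.571, median 0.0154, 5 of 15 pairs over 0.1). With the replicate number as a block 563 were called, 318 higher and 245 lower.

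The hybridization control difference was 0.118 against rounded follicles alone (exact permutation p = 0.198), and 0.139 to 0.226 without single arrays. Its unadjusted p, which alone was under 0.05, was over it without atretic replicate 2 (exact permutation p = 0.0949) or 5 (exact permutation p = 0.0789). The poly-A difference ranged from 0.111 to 0.289. The 3′ excess ranged from 0.0550 to 0.101 and its unadjusted p was under 0.05 only without atretic replicate 1 (exact permutation p = 0.0320).

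Of 128 named genes 81 were called and 20 kept the call in all 30 alternatives. Against rounded follicles alone 60 lost it, 58 kept it or lost it only there, and none reversed. CLDN11 lost it in 11 alternatives, 7 of them the omission of 1 array. Omitting atretic replicate 5 ended the calls of SAA3, CLDN11, CYP11A1, SQLE, INSIG1, NKG7, CORO1A, MYH11, CCL2, CTSZ, MT2A, TGFBI, PDK4, CLU, PTPRC, TIMD4, CD5L, SCD and FABP3. Omitting atretic replicate 1 ended those of SAA3, VNN1, CLDN11, MYH11, MT2A, CLU, PTPRC, SCD, LTF and FABP3. Calls were gained by CYP17A1, AMH, FAS, FRZB, INSR, CSF1R, HSD17B1 and MCM6 when single atretic arrays were omitted, and by GATM without rounded replicate 1. Of 29 list medians 6 changed sign with housekeeping and 8 with poly-A centring. Depth in reads does not apply to arrays, and 56 lower calls had an atretic mean, and 58 higher calls a healthy mean, under the filter level.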

Other observations

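Several called genes outside the lists, chosen after their values were seen, are known from tissue macrophages. MERTK, a receptor for the uptake of apoptotic cells, read 5.6, 4.7, 4.5, 4.9 and 5.2 in atretic theca interna against 3.1 to 4.3 in healthy (median 3.4), with no overlap and a 2.71-fold rise (limma, adjusted p = 0.00139). FOLR2, a folate receptor of resident macrophages, read 6.4, 5.7, 5.4, 6.4 and 7.2 against 3.6 to 5.2, likewise without overlap (3.27-fold, adjusted p = 0.00157). TIMD4, which binds phosphatidylserine on dying cells, rose 2.30-fold, and VSIG4, a complement receptor, rose by 1.52 on the log2 scale from a healthy mean of 2.88, under the filter level. Each had 3 of 5 atretic arrays above all healthy ones. CD5L, a secreted macrophage protein, read 3.8, 3.3, 1.7, 2.3 and 5.4 against 1.5 to 2.6, a healthy range under the filter level (adjusted p = 0.0174).

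Other called genes picked in the same way act on lipids. The scavenger receptor CD36 rose 3.51-fold (adjusted p = 0.00529), the lipoprotein component APOE 2.55-fold and CH25H, which makes 25-hydroxycholesterol, 4.11-fold (adjusted p = 0.00298). SCD, the stearoyl-CoA desaturase, fell 2.58-fold (adjusted p = 0.0405), a call lost when any of 9 single arrays was left out, and the fatty acid binding protein FABP3 2.87-fold. Of signalling genes, CXCL14, a chemokine, read 7.1, 7.9, 9.2, 7.8 and 7.0 against 9.0 to 10.2 (median 9.7), a 3.71-fold fall (adjusted p = 0.00139). The apelin receptor APLNR fell 3.23-fold and the potassium channel KCNMA1 fell by 1.74 on the log2 scale to an atretic mean of 2.72, under the filter level, while the neurotrophin receptor NTRK2 rose 3.76-fold and the iron-binding protein LTF 2.28-fold.

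Healthy arrays differed among themselves in cell cycle signals. The list mean was 5.96, 7.59, 6.19, 6.42 and 7.71 on rounded replicates 1 to 5 and 7.41, 7.53, 7.20, 5.88 and 7.70 on columnar replicates 1 to 5. In the same order, complement list means were 6.30, 5.66, 5.93, 5.82 and 5.59, then 5.57, 5.52, 5.68, 5.87 and 5.45.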
